A study of Rattus norvegicus with 16 samples.

Results

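The 9 genes described here encode the TGF-beta ligands (Tgfb1, Tgfb2, Tgfb3), their receptors (Tgfbr1, Tgfbr2, Tgfbr3) and 3 SMAD proteins (Smad2, Smad3, Smad7). They were chosen by name, with earlier results of these data known, from the 32883 genes with a deposited expression value. All 9 were found. Of the SMADs, Smad7 is itself a known target gene of the pathway, whereas Smad2 and Smad3 carry its signal. A wider set of target genes is therefore given as a separate list below. The cells were primary vascular smooth muscle cells of the rat aorta with a wild-type genotype, grown in medium with 20% fetal bovine serum. In the knockdown group an adenovirus carried a short hairpin RNA against Nat10 for 48 h, and in the control group a control adenovirus was used for the same time. NAT10 is the enzyme that acetylates cytidine in RNA to N4-acetylcytidine (ac4C). Input RNA and RNA immunoprecipitated with an antibody against ac4C were sequenced from 3 libraries of each group, and RNA that came down with an antibody against NAT10 (NAT10 RIP) was sequenced in 3 libraries from cells that had received no virus. All cells thus shared the high serum, all input and ac4C libraries shared the adenovirus, and 1 hairpin was used. The series calls the repeats biological without naming separate animals or cultures, so the p-values measure the spread between these libraries, which may be technical.

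TGF-beta ligands are secreted in a latent form bound to matrix proteins and become active once they are released. An active ligand binds the type II receptor Tgfbr2, which phosphorylates the type I receptor Tgfbr1. Betaglycan, the product of Tgfbr3, presents ligand to them and matters most for TGF-beta2. The type I receptor phosphorylates SMAD2 and SMAD3, which enter the nucleus with SMAD4 and switch on genes, among them Smad7, whose product returns to the receptor and blocks it. In the artery wall the pathway is known for keeping smooth muscle contractile and for driving the synthesis of matrix.

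The promoter windows of the 3 ligand genes and of Smad7 are shown because the ligands made up most of the summed FPKM of the 9 genes and Smad7 is a known target gene of the pathway. Each window runs 5′ to 3′ along the gene's own strand, from 250 bases before to 50 bases after the annotated start, in RefSeq's annotation of assembly GRCr8. All 9 genes matched, with 10 windows, since Smad2 has 2. Capitals mark GGGCGG (the GC box, read on either strand) and CACGTG (the E-box, the same on both strands), and the 4 windows lie at chr1:90324062-90324361 on the plus strand for Tgfb1, chr13:100792636-100792935 on the minus strand for Tgfb2, chr6:111456897-111457196 on the minus strand for Tgfb3 and chr18:71263258-71263557 on the plus strand for Smad7.
Tgfb1: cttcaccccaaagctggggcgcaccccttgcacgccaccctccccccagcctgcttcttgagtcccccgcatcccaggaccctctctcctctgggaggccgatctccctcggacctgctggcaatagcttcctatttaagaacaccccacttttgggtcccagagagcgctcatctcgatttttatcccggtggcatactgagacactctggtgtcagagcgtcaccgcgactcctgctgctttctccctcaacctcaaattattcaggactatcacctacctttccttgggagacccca
Tgfb2: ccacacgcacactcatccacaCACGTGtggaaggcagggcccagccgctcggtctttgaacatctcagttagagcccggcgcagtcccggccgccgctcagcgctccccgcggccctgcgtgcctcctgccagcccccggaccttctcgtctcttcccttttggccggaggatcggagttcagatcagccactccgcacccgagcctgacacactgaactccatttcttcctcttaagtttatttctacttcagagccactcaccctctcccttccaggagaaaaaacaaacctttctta
Tgfb3: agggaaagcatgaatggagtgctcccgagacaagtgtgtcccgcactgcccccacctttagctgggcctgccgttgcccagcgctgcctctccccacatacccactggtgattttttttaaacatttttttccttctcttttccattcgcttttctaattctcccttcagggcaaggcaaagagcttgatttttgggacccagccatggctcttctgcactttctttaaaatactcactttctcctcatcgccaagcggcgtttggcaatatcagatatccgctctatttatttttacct
Smad7: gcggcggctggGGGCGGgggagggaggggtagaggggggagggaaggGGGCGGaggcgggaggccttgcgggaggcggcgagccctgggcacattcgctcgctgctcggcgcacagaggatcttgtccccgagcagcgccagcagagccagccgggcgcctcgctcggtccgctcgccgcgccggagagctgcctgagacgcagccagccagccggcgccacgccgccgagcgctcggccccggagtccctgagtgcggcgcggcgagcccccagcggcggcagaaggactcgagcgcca

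The ligand windows held less G and C than most windows of the other 6 genes, and no GC box. G and C made up 57.7% of the Tgfb1 window, 59% of the Tgfb2 window and 47.7% of the Tgfb3 window, against 77.7% for Smad7 and a median of 51.7% over all 33469 windows. Among the receptors and the signal-carrying SMADs the share was 74.7% for Tgfbr1, 59% for Tgfbr2, 69.7% for Tgfbr3 and Smad3, and 80% and 82.7% for the 2 windows of Smad2. GGGCGG occurred, on one strand or the other, in a window of each of the 6 receptor and SMAD genes and in none of the 3 ligand windows, while 33.1% of all windows held it. CACGTG occurred in the Tgfb2 window only, against 6.42% of all windows. None of the 9 genes had TGACTCA (the AP-1 site, in 4.63% of all windows), GTCTAGAC (the SMAD palindrome, 0.197%), CAGAC (the SMAD box, 50.1%) or TATAAA (14.2%), each read on both strands. These matches describe letters in 300 bases and show no binding.

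The input libraries held 6417941 to 7468528 fragments in the knockdown group and 8171176 to 12065991 in the control group. Nat10 stood at 4.38, 3.68 and 4.58 FPKM (fragments per kilobase of gene length, with each library scaled for its size) in the knockdown libraries, against 7.69, 9.22 and 9.95 FPKM in the controls, with no overlap and without passing the threshold over all genes (limma, adjusted p = 0.227). Knockdown library 2 stood apart on the first principal component of all genes tested, at -69.99, against -10.3 to 30.9 in the other 5 libraries, and values without it are given where it moved a result most. The summed level of 10 smooth muscle markers, of which Des alone was below 1 FPKM in every library, ranged over 695 to 3305 FPKM in the knockdown libraries and 4204 to 5764 FPKM in the controls. Markers of other cell types were low. Those of endothelial cells summed to 6.30 to 23.8 and 9.23 to 17.6 FPKM (9 of 10 analysed here, Cldn5 and Emcn at 0), leukocyte markers to 13.1 to 20.6 and 10.1 to 13.5 FPKM (10 of 10, Cd3e and Tyrobp at 0), and Schwann cell markers to 2.64 to 3.76 and 3.06 to 5.11 FPKM (6 of 6, none at 0), knockdown before control in each case. Adventitial fibroblast markers were higher, with 54.4 to 148 FPKM in the knockdown libraries and 136 to 217 FPKM in the controls (10 of 10, Ly6c at 0). The part of the smooth muscle and fibroblast markers in the results on the TGF-beta genes was not tested, and in such bulk RNA fewer cells of a type and less RNA per cell cannot be told apart.

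All 9 TGF-beta genes passed the filter of a mean of 1 FPKM. By level per gene length, Tgfb3 ranked 230 and Tgfb2 ranked 269 among the 32883 genes, ahead of Tgfb1 (661), Smad7 (1574), Tgfbr2 (2357), Smad3 (3537), Smad2 (4112), Tgfbr3 (7839) and Tgfbr1 (8397). Ligand RNA was therefore far more abundant per length than receptor RNA, and the type II receptor was more abundant than the type I receptor and betaglycan. In the knockdown group the order by mean level was Tgfb2, Tgfb3, Tgfb1, Smad7, Tgfbr2, Smad3, Smad2, Tgfbr3 and Tgfbr1, and only Tgfbr3 lay below its upper neighbour without overlap. In the control group Tgfb3 came before Tgfb2, with overlapping ranges, and Tgfb1, Smad7, Tgfbr3 and Tgfbr1 each lay below their upper neighbour without overlap, whereas Tgfbr2, Smad3 and Smad2 overlapped.

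**Figure D1:**
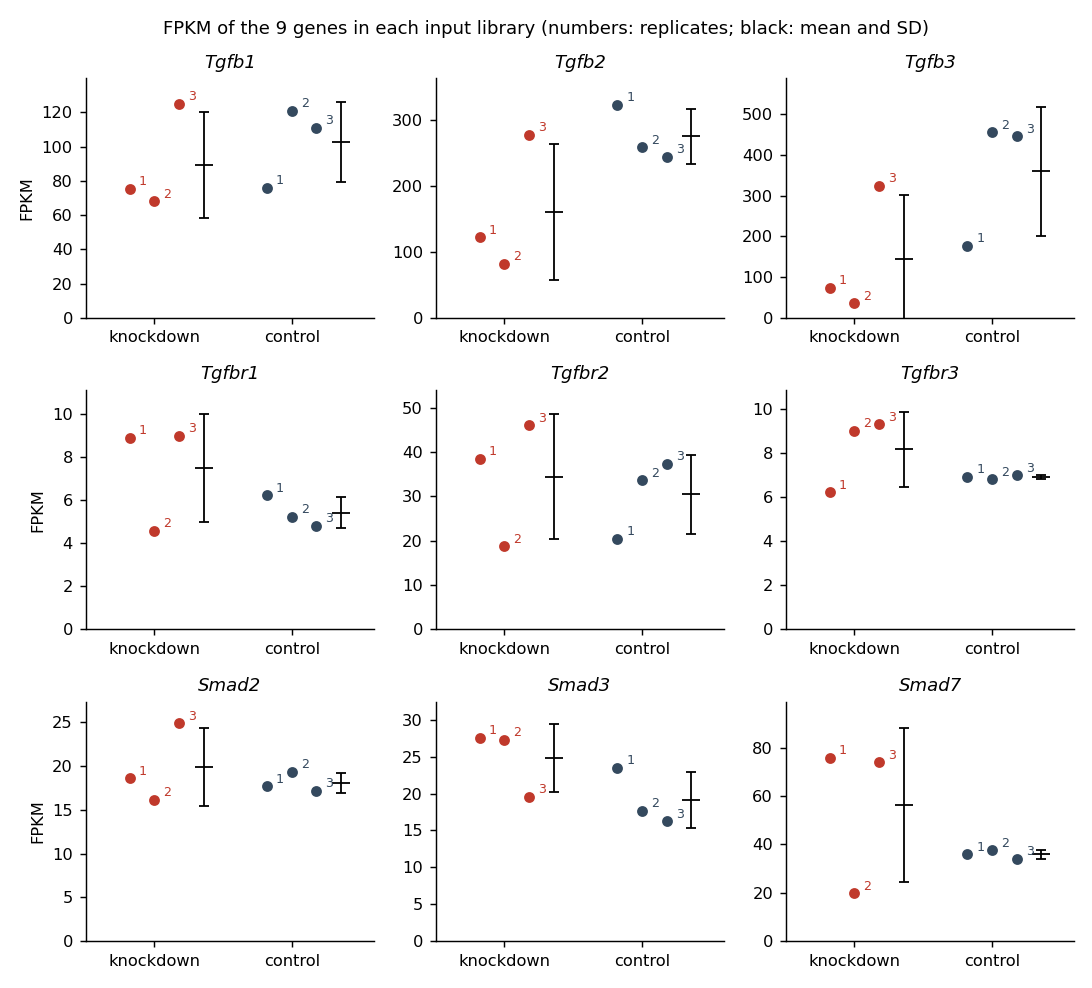
Expression of each of the 9 TGF-beta genes in FPKM (linear axis from 0) in the 3 knockdown and 3 control input libraries. Numbered points are libraries and black marks are the mean and SD, whose lower end for Tgfb3 in the knockdown group falls below the axis. The 2 groups overlap in every panel, and the knockdown libraries are spread more widely than the controls for 8 of the 9 genes as a share of their mean.

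Among the ligands, Tgfb3 and Tgfb2 had the largest differences between the groups and Tgfb1 the smallest, and none passed the test. Tgfb3 (ENSRNOG00000009867), the ligand with the highest mean in the controls, stood at 72.9, 35.9 and 324 FPKM in the knockdown libraries, against 177, 456 and 446 FPKM in the controls. Knockdown libraries 1 and 2 lay below every control, while knockdown library 3 lay above control library 1. The means were 144 ± 157 FPKM in the knockdown group and 360 ± 158 FPKM in the control group (SD, n = 3 each), and the log2 change was -1.79 (95% interval -3.65 to 0.08, limma adjusted p = 0.416). Within the knockdown group the highest level was 9.02 times the lowest, the widest spread of the 9 genes. Tgfb3 had 768 to 9685 fragments per library. Without knockdown library 2 its log2 change was -1.10, and without knockdown library 3 it was -2.67.

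Tgfb2 (ENSRNOG00000002418), the ligand that depends most on betaglycan, stood at 122, 82.3 and 278 FPKM in the knockdown libraries, against 323, 259 and 245 FPKM in the controls. As for Tgfb3, libraries 1 and 2 of the knockdown group lay below every control and library 3 lay among them. The means were 161 ± 103 FPKM in the knockdown group and 276 ± 41.8 FPKM in the control group (SD, n = 3 each), with a log2 change of -0.95 (95% interval -1.96 to 0.06, limma adjusted p = 0.420). Without knockdown library 2 it was -0.57, and without knockdown library 3 it was -1.44 (limma adjusted p = 0.0938). Tgfb1 (ENSRNOG00000020652), the most widely expressed ligand in the body, stood at 75.3, 68.0 and 125 FPKM in the knockdown libraries, against 76.1, 121 and 111 FPKM in the controls. Both ranges covered almost the same levels, with means of 89.4 ± 31.0 FPKM in the knockdown group and 103 ± 23.5 FPKM in the control group (SD, n = 3 each). Its log2 change was -0.22 (95% interval -0.91 to 0.46, limma adjusted p = 0.781), or -0.053 without knockdown library 2 and -0.49 without knockdown library 3.

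The 3 ligands also differed in how they made up the summed ligand RNA of a library. The sum was 270, 186 and 727 FPKM in the knockdown libraries, against 577, 836 and 802 FPKM in the controls, so 2 knockdown libraries lay below every control. Tgfb1 made up 27.8%, 36.5% and 17.2% of that sum in the knockdown libraries, against 13.2%, 14.5% and 13.8% in the controls, without overlap. Tgfb3 made up 27.0%, 19.3% and 44.6% in the knockdown libraries, against 30.7%, 54.6% and 55.6% in the controls, with control library 1 inside the knockdown range. Tgfb2 made up 45.2%, 44.2% and 38.2% in the knockdown libraries, against 56.1%, 31.0% and 30.5% in the controls, which overlapped. The ratio of Tgfb3 to Tgfb1 was 0.968, 0.528 and 2.59 in the knockdown libraries, against 2.33, 3.77 and 4.02 in the controls, so Tgfb1 exceeded Tgfb3 per length in knockdown libraries 1 and 2 only. These ratios within a library do not depend on how the libraries were scaled to each other. They were computed after the levels had been seen and were not tested.

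**Figure D2:**
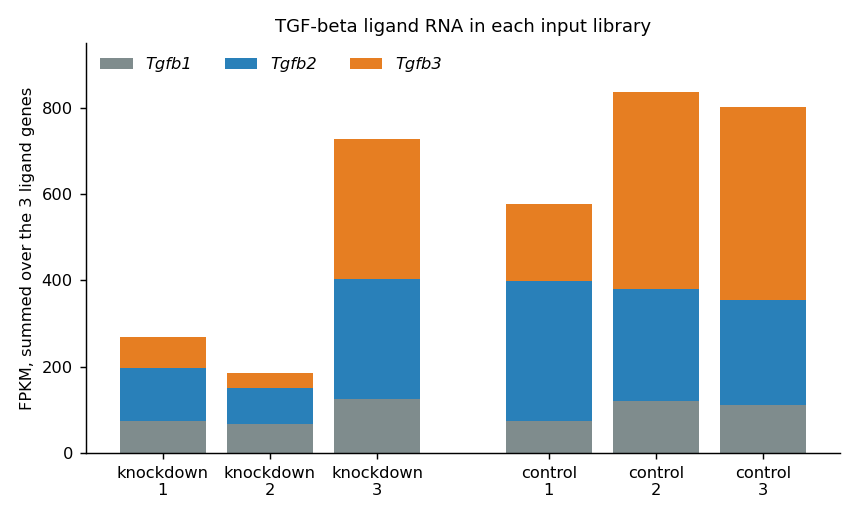
Stacked bars give the FPKM of Tgfb1, Tgfb2 and Tgfb3 in each of the 3 knockdown and 3 control input libraries, on a linear axis from 0. Tgfb1 takes 17.2% to 36.5% of the bar in the knockdown libraries and 13.2% to 14.5% in the controls, and the bars of knockdown libraries 1 and 2 are the shortest.

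None of the 3 receptor genes passed the test, and all 3 had positive estimates. Tgfbr1 (ENSRNOG00000007036), the type I receptor kinase, stood at 8.897, 4.57 and 8.996 FPKM in the knockdown libraries, against 6.22, 5.21 and 4.81 FPKM in the controls. Knockdown libraries 1 and 3 lay above every control and library 2 lay below every control, with a log2 change of 0.36 (95% interval -0.29 to 1.01, limma adjusted p = 0.624). Without knockdown library 2 it was 0.64, and without knockdown library 1 or 3 it was 0.22. Tgfbr1 had the lowest level of the 9 genes, and its smallest library held 219 fragments. Tgfbr2 (ENSRNOG00000013265), the type II receptor that binds the ligand first, stood at 38.5, 18.7 and 46.0 FPKM in the knockdown libraries, against 20.4, 33.6 and 37.3 FPKM in the controls. The groups spread over the same range, and the log2 change of 0.12 (95% interval -0.76 to 1.00, limma adjusted p = 0.913) turned negative without knockdown library 1 (-0.0011), without knockdown library 3 (-0.13) or without control library 1 (-0.13). Tgfbr3 (ENSRNOG00000002093) stood at 6.22, 8.99 and 9.28 FPKM in the knockdown libraries, against 6.92, 6.80 and 6.98 FPKM in the controls. It averaged 8.16 ± 1.69 FPKM in the knockdown group and 6.898 ± 0.0953 FPKM in the control group (SD, n = 3 each). Knockdown libraries 2 and 3 lay above the nearly identical controls and library 1 lay below them (log2 change 0.20, 95% interval -0.27 to 0.67, limma adjusted p = 0.715). Leaving out 1 library moved it between 0.10 and 0.36.

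Tgfbr2 exceeded Tgfbr1 per length in every library, by 4.32, 4.099 and 5.11 times in the knockdown group and by 3.28, 6.44 and 7.75 times in the control group, where the knockdown values lay inside the control range. The 3 receptor genes summed to 53.6, 32.3 and 64.3 FPKM in the knockdown libraries, against 33.5, 45.6 and 49.1 FPKM in the controls.

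The SMAD genes did not pass the test either. Smad2 (ENSRNOG00000018140), which carries the signal into the nucleus, stood at 18.6, 16.2 and 24.9 FPKM in the knockdown libraries, against 17.7, 19.4 and 17.2 FPKM in the controls. The controls lay inside the knockdown range, and the log2 change was 0.11 (95% interval -0.35 to 0.57, limma adjusted p = 0.844), or -0.06 without knockdown library 3. Smad3 (ENSRNOG00000008620), the partner of Smad2 that binds DNA directly, stood at 27.6, 27.3 and 19.5 FPKM in the knockdown libraries, against 23.5, 17.7 and 16.2 FPKM in the controls. Knockdown libraries 1 and 2 lay above every control, library 3 lay among them, and the log2 change was 0.36 (95% interval -0.15 to 0.87, limma adjusted p = 0.529). The ratio of Smad3 to Smad2 was 1.48, 1.69 and 0.786 in the knockdown libraries, against 1.33, 0.912 and 0.944 in the controls, with overlap.

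Smad7 (ENSRNOG00000018359), the inhibitor that the pathway induces, split the knockdown group. It stood at 75.7, 19.6 and 73.8 FPKM in the knockdown libraries, against 35.9, 37.4 and 34.0 FPKM in the controls. Knockdown libraries 1 and 3 lay above every control and library 2 lay below every control, with means of 56.4 ± 31.9 FPKM in the knockdown group and 35.8 ± 1.71 FPKM in the control group (SD, n = 3 each). The log2 change was 0.42 (95% interval -0.74 to 1.58, limma adjusted p = 0.753), and leaving out 1 library moved it between 0.10 and 1.04. Without knockdown library 2 it was 1.04 (limma adjusted p = 0.131), without library 1 it was 0.10 and without library 3 it was 0.11. The ratio of Smad7 to Smad3 was 2.74, 0.718 and 3.78 in the knockdown libraries, against 1.53, 2.12 and 2.09 in the controls, so knockdown library 2 again lay on the other side of the controls from the remaining 2.

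**Figure D3:**
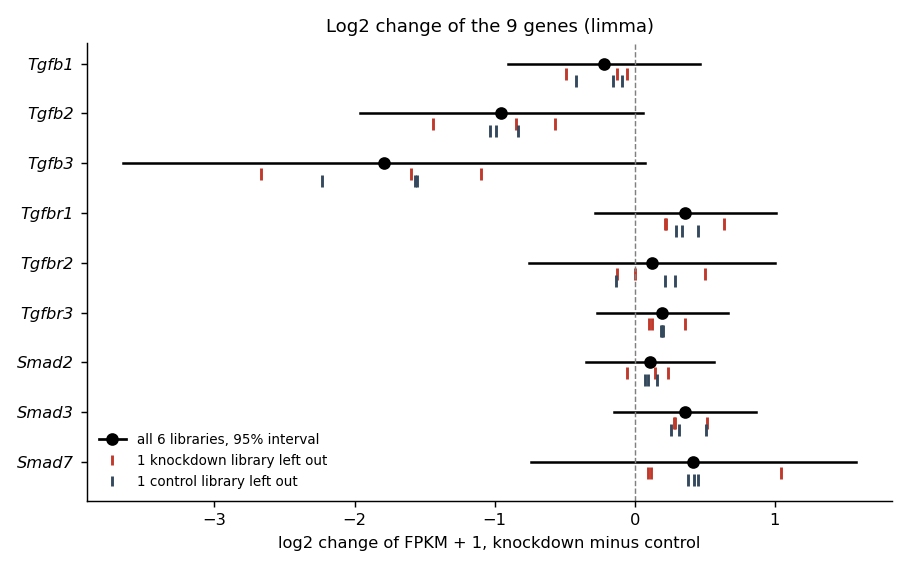
Log2 change of FPKM + 1 (knockdown minus control) of the 9 TGF-beta genes with its 95% interval over all 6 libraries, from the limma fit to all genes tested. Ticks below each point give the change with 1 knockdown or 1 control library left out; every interval covers 0, and Tgfb3 spans -2.67 to -1.10 and Smad7 0.10 to 1.04 when 1 library is left out.

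In all, 0 of the 9 genes passed an adjusted p of 0.05, as did 0 of the 13450 genes tested with limma (0%). At an unadjusted p under 0.05 the count was again 0 of 9, where 12.5% of all genes tested, 744 higher and 935 lower, met that mark. That count was 2 of 9 without knockdown library 2 (Tgfbr1 and Smad7, higher), beside 15.9% of all genes, and without knockdown library 3 it was 3 of 9 (Smad3 higher, Tgfb2 and Tgfb3 lower), beside 19.2%. With library quality weights 3 were higher (Tgfbr1, Smad3 and Smad7) and 2 lower (Tgfb2 and Tgfb3), beside 26.2%. Scaled to the same total, Tgfb2 and Tgfb3 were lower, beside 10.8%. Tgfb3 alone met the mark with the replicate number as a block (8.74%) and without control library 1 (10.1%). Without both control library 1 and knockdown library 2, Tgfbr1 and Smad7 met it (15.4%). The libraries of the 2 groups overlapped for all 9, while 20.6% of all genes tested did not overlap. Of the 9 changes 6 were positive and 3 negative, with a median of 0.12, against -0.01 over all genes tested. A fit of the recovered fragments with voom also gave 0 genes past the threshold, whereas limma with library quality weights, which gave knockdown library 2 a weight of 0.2355, passed 335 genes and none of the 9. The smallest adjusted p of the 9 under any of 18 alternatives was 0.0645, for Tgfb3 with those weights.

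A wider view of the pathway came from 4 lists of 101 genes that leave out the 9. Of the 14 other receptors and co-receptors, 12 were tested, with 7 positive and 5 negative changes and a median of 0.05. Acvr2a, a type II receptor for activins, stood at 16.3, 12.9 and 18.6 FPKM in the knockdown libraries, against 10.7, 9.68 and 12.6 FPKM in the controls. It was the only gene of this list whose libraries did not overlap (log2 change 0.49, unadjusted p = 0.0401, limma adjusted p = 0.384), where 9.63% of all genes tested lay higher without overlap. The next by p, Bmpr2, Acvrl1, Bmpr1a and Nrp1, had log2 changes of -0.55, -0.80, -0.32 and -0.52 at unadjusted p-values of 0.128 to 0.160 in the same limma fit. These were -0.30, -0.29, -0.21 and -0.19 without knockdown library 2.

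The list of other ligands, antagonists and proteins of latency had 22 of 26 genes tested, 5 with positive and 17 with negative changes, and a median of -0.27. Without knockdown library 2 there were 11 of each, with a median of -0.0089, and without knockdown library 3 the median was -0.62. Chrd, which encodes the BMP antagonist chordin, stood at 1.46, 1.91 and 3.02 FPKM in the knockdown libraries, against 5.32, 5.05 and 5.46 FPKM in the controls, and was the only one without overlap, 1 of 22 where 10.9% of all genes tested lay lower without overlap (log2 change -1.03, unadjusted p = 0.00415, limma adjusted p = 0.267). Its lowest library held 35 fragments. Thbs1, whose product thrombospondin-1 activates latent TGF-beta, stood at 2580, 305 and 4206 FPKM in the knockdown libraries, against 2505, 5042 and 4882 FPKM in the controls. Its log2 change was -1.40 (limma adjusted p = 0.583), knockdown library 2 was far below the others, and the change was -0.26 without that library. Gdf15, a stress-induced member of the TGF-beta family, was the reverse, at 148, 755 and 120 FPKM in the knockdown libraries, against 140, 61.6 and 78.4 FPKM in the controls (log2 change 1.43, limma adjusted p = 0.453, or 0.60 without knockdown library 2). Fst, which encodes the activin antagonist follistatin, and Fstl1 had log2 changes of 0.74 and -0.64, with overlapping libraries. That of Fst was 0.24 without knockdown library 1, and that of Fstl1 was -0.32 without knockdown library 2.

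Among 23 tested transducers and inhibitors of 26 listed, 12 changes were positive and 11 negative, with a median of 0.03. In this list 3 genes lay lower and 1 higher without overlap, beside 10.9% and 9.63% of all genes tested. Pmepa1, a target and inhibitor of TGF-beta signalling, stood at 148, 83.4 and 208 FPKM in the knockdown libraries, against 332, 333 and 331 FPKM in the controls. All 3 knockdown libraries lay below controls that were nearly identical (146 ± 62.3 FPKM against 332 ± 0.983 FPKM, SD, n = 3 each), with a log2 change of -1.27 (unadjusted p = 0.00610, limma adjusted p = 0.279). The ubiquitin ligase gene Wwp1 and the repressor gene Zeb1 were also lower without overlap, with log2 changes of -0.42 and -0.36 (limma adjusted p = 0.385 and 0.389). Usp15, a deubiquitinase that stabilizes the type I receptor in human cells, was higher without overlap (log2 change 0.31, limma adjusted p = 0.496), and Trim33 had the same log2 change of 0.31 with overlapping libraries.

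The list of target genes lay lowest. Of 34 tested of 35 listed, 4 had positive and 30 negative changes, against 51.4% negative over all genes tested, and the median was -0.51. Unadjusted p was under 0.05 for 12 lower and 2 higher genes, where the background was 6.95% lower and 5.53% higher, and 14 lay lower and 1 higher without overlap, where the background was 10.9% lower. None passed the adjusted threshold in limma. The 12 lower genes numbered 5 without knockdown library 1 or 2, 4 or 5 without any 1 control library and 15 without knockdown library 3. With no filter on low values they also numbered 5, while the median stayed between -0.73 and -0.36 under all 18 alternatives. Col3a1, which encodes a fibrillar collagen of the artery wall, stood at 197, 81.9 and 575 FPKM in the knockdown libraries, against 1653, 1696 and 1768 FPKM in the controls (log2 change -3.01, unadjusted p = 0.00217, limma adjusted p = 0.253). Acta2, the smooth muscle actin, stood at 356, 138 and 957 FPKM in the knockdown libraries, against 2176, 1479 and 1486 FPKM in the controls (log2 change -2.22, limma adjusted p = 0.305). Neither Col3a1 nor Acta2 overlapped between the groups.

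Junb, a quickly induced transcription factor gene, was likewise lower without overlap (log2 change -0.51), and Cdkn2b, the cell-cycle inhibitor that TGF-beta induces in epithelial cells, was higher without overlap (log2 change 0.58), both with a limma adjusted p of 0.345. Acta2, Tagln and Cnn1 of this list are also among the smooth muscle markers summed above, of which Tagln was the highest. That sum contains them and is no separate observation. The lower target genes and the positive Smad7 estimate pointed in different directions in knockdown libraries 1 and 3: the median deviation of the target genes from the control mean was -0.50 and -0.23 there, and Smad7 deviated by 1.06 and 1.03 on the same log2 scale. In knockdown library 2 both were negative, at -0.995 for the target median and -0.83 for Smad7. With library quality weights Chrd, Pmepa1 and Col3a1 passed (limma adjusted p = 0.0453, 0.0407 and 0.0273), where 335 of all 13450 genes tested did. No other gene of the 4 lists passed under any alternative. The lists were chosen with earlier results of these data known, and their counts are a description.

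**Figure D4:**
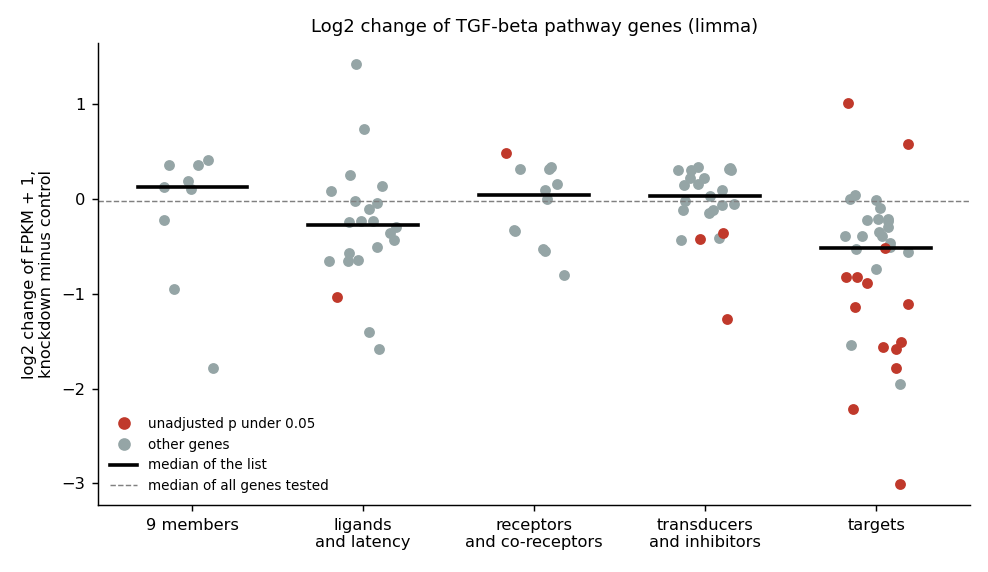
Log2 change of FPKM + 1 (knockdown minus control) for the 9 TGF-beta genes and for the tested genes of the 4 pathway lists, with the list median as a black bar and the median of all genes tested as a dashed line. Red points have an unadjusted p under 0.05; the target genes lie lowest, with a median of -0.51 and 12 such genes below 0.

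Tgfb3, with the smallest p of the 9, was followed across the 6 input libraries most closely by Anks1b, Ywhaq and Lonrf2. Pearson's r of their log2(FPKM + 1) values was 0.9995, 0.9991 and 0.9988, and 307 genes reached 0.95. Anks1b stood at 4.57, 2.82 and 11.8 FPKM in the knockdown libraries, against 8.17, 15.0 and 15.1 FPKM in the controls, in the same order as Tgfb3 except that control libraries 2 and 3 changed places. These correlations over 6 libraries share the group difference and the libraries that stand apart, and are a description.

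The ac4C lists held rows in 7 of the 9 genes and none in Tgfb1 and Smad2. In control lists 1 and 2 most rows carried a single p-value, 0.045 for 26881 of 29998 rows and 0.046 for 27673 of 29593 rows, whereas the remaining lists had 2592 to 3479 rows and no such value. Rows at the shared p-value are therefore set apart, and Tgfbr2 had no others. Off that value, Tgfb2, Tgfb3, Tgfbr1, Tgfbr3, Smad3 and Smad7 had a peak in at least 1 library, where 47.6% of the genes tested did. Tgfb3 and Smad7 had a peak off the shared p-value in all 6 libraries, where 2.09% of the genes tested did, and Tgfb2 had one in 5 of 6, all but knockdown library 2 (at least 5 libraries, 4.53%). Counted by group, Tgfb3 and Smad7 had a peak in all 3 knockdown libraries (4.72% of the genes tested), and Tgfb2, Tgfb3 and Smad7 in all 3 controls (4.29%). Among genes with a mean of at least 100 FPKM, to which Tgfb3 and Tgfb2 belong, the share with peaks in all 6 was 12.8%, and for 20 to 100 FPKM, where Smad7 lay, it was 3.95%.

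The peaks of Tgfb3, Tgfb2 and Smad7 fell mostly in places listed in both groups. Coordinates are those of the deposited lists, counted from 1, and rn6 is the only rat build the submitters name. Each place joins peaks that overlap in a chain, so the peaks of some libraries in it share no base. In Tgfb3, chr6:109914292-109914650 held a peak in knockdown libraries 1, 2 and 3 and in control libraries 1 and 3, and chr6:109913757-109914114 in knockdown libraries 2 and 3 and control libraries 1 and 2, all on the minus strand. In Tgfb2, chr13:105040632-105041172 on the minus strand held a peak in knockdown libraries 1 and 3 and in all 3 controls. Within it the peak of control library 1 shared no base with those of control library 2 and knockdown library 1. In the second Tgfb3 place the same held for knockdown libraries 2 and 3. In Smad7, chr18:71423859-71424157 on the plus strand held a peak in knockdown libraries 1 and 2 and control libraries 2 and 3, while knockdown library 3 and control library 1 had theirs elsewhere in the gene. The lowest p-values deposited were 1e-159 for Tgfb3 in knockdown library 3, against 1e-121 in control library 2, and 0 as listed for Tgfb2 in knockdown library 3, against 3.2e-45 in control library 1. Smad7 reached 1.3e-21 in knockdown library 1, against 1.4e-06 in control library 1. These are the lowest values of each group, and in each pair the peaks lay at different places of the gene. They therefore do not compare the same site between the groups.

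The other genes had few peaks. Smad3 had a peak at chr8:68569530-68569740 in knockdown library 1, with a deposited p-value of 2e-04, and in control library 1, with one of 1e-27, and in no other library. Tgfbr1 had 1 in knockdown library 2 with a deposited p-value of 0.0032, with rows at the shared p-value in control libraries 1 and 2. Tgfbr2 had rows at the shared p-value in control libraries 1 and 2 and no other peak, where 22.1% of the genes tested had such rows in both, and Tgfbr3 had 1 peak in control library 1 with a deposited p-value of 0.0051, beside 1 such row. A list with a peak somewhere in the gene was common, since 47.6% of the genes tested had at least 1 peak off the shared p-value in at least 1 library.

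The 9 genes together had 4, 6 and 7 listed ac4C peaks in the knockdown libraries, against 13, 6 and 3 in the controls. The difference in means was -1.67 (two-sided exact permutation p = 0.9 over 6 libraries, where 0.1 is the smallest possible). Without the rows at the shared p-value the controls held 8, 3 and 3, and the difference turned to 1 (exact permutation p = 0.8). At a deposited p of at most 0.001 there were 4, 3 and 7 in the knockdown libraries, against 7, 2 and 2 in the controls, again a difference of 1 (exact permutation p = 0.6). Control library 1 decided the sign in the first count, and without it the difference was 1.17. The lists give no reads, so depth behind a peak is unknown and a missing peak does not show a missing mark.

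**Figure D5:**
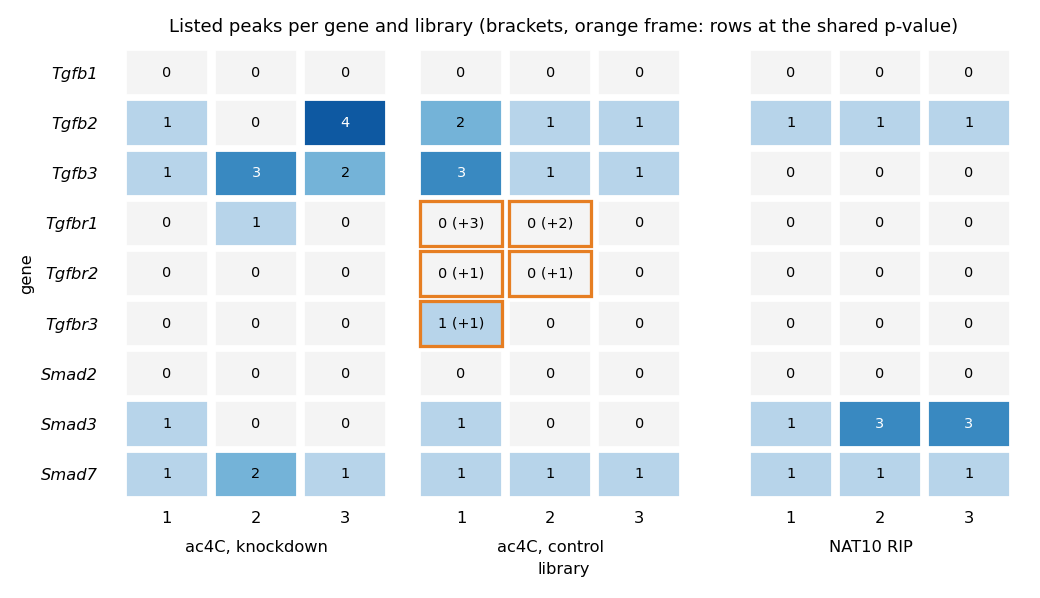
Number of listed peaks for each of the 9 TGF-beta genes in the 3 knockdown and 3 control ac4C libraries and the 3 NAT10 RIP libraries. Bracketed numbers in orange frames are rows at the p-value that most rows of control lists 1 and 2 share; Tgfb3 and Smad7 have a peak in all 6 ac4C libraries, and Tgfb2, Smad3 and Smad7 in all 3 NAT10 RIP libraries.

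NAT10 RIP peaks lay in 3 of the 9 genes, Tgfb2, Smad3 and Smad7, and these 3 had a peak in each of the 3 lists. Among the genes tested, 2.68% had a peak in all 3 lists and 5.93% in at least 1. The share in all 3 was 11.8% for genes with a mean of at least 100 FPKM, such as Tgfb2, and 6.8% at 20 to 100 FPKM, such as Smad3 and Smad7. The lists held 1773 to 2268 peaks in all, in 548 to 586 genes. No peak lay in Tgfb1, Tgfb3, Tgfbr1, Tgfbr2, Tgfbr3 or Smad2.

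For Tgfb2 the same 50 bases, chr13:105045563-105045612 on the minus strand, were listed in all 3 libraries, with the authors' log2 enrichments of 0.89, 1.07 and 0.87. These lay below the medians of the lists, which were 1.09, 1.07 and 1.09. For Smad3, chr8:68570530-68570779 on the minus strand was shared by all 3, with log2 enrichments of 1.16, 1.12 and 1.05, and chr8:68572280-68572454 by libraries 2 and 3. For Smad7 the library 1 peak was at chr18:71397080-71397154, with a log2 enrichment of 1.57 that ranked 180 of 2268 in its list. The Smad7 peaks of libraries 2 and 3 were at chr18:71422663-71422737, with log2 enrichments of 1.20 and 1.19, so its peaks were in all 3 lists but not in 1 place. No member reached a log2 enrichment of 2.

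Smad7 was the only one of the 9 with ac4C peaks in all 6 libraries and NAT10 peaks in all 3, as were 0.283% of the genes tested. Its NAT10 peak in RIP libraries 2 and 3 overlapped an ac4C peak of the knockdown group. The ac4C peak at chr18:71422696-71422934 in knockdown library 3 shared 42 bases with it, and that at chr18:71422547-71422666 in knockdown library 2 shared 4 bases with the RIP library 3 peak and none with that of RIP library 2. The Smad7 peak of RIP library 1 lay 474 bases from the ac4C peak of control library 1. The shared NAT10 peak of Smad3 lay 789 bases from the nearest ac4C peak, which was listed in knockdown library 1 and control library 1 only. The shared NAT10 peak of Tgfb2 lay 1670 bases from an ac4C peak that was listed in knockdown library 3 only. These distances are counted along the genome. Tgfb3 had ac4C peaks in all 6 libraries and no NAT10 peak. The RIP cells carried no virus and came from a separate assay, so these positions are set side by side and not tested against the knockdown.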

How the data were processed

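Input RNA was analysed from 3 knockdown and 3 control libraries, ac4C peaks from 3 libraries of each group and NAT10 RIP peaks from 3 libraries, grouped and numbered by their titles. The authors deposited FPKM per Ensembl gene, 1 ac4C peak list per library that gives each peak a p-value, and 1 NAT10 RIP list per library that adds each peak's log2 enrichment. Whether the ac4C p is raw or adjusted, the peak callers, the control behind the RIP enrichment and whether counting used strand are not given in any source used here. The series also holds a total RNA library titled as a non-IP control, which was not analysed here. Whether it served as the RIP control is not given either. The submitters' processing notes list HISAT2 2.1.0, featureCounts 1.6.3, cutadapt 2.5, DESeq2 and HOMER 4.10.4, with rn6 as the only rat build. The peak scores are the authors' own.

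The 13450 genes (of 32883) whose mean FPKM reached 1 were fitted on log2(FPKM + 1), a scale that understates changes of low genes, with limma 3.58.1 in R 4.3.3, a trend of variance on mean, no term but group, and Benjamini-Hochberg adjustment at 0.05. Whole fragments were recovered from the deposited FPKM for 21401 of 21401 genes above 0. The authors' scaling followed library size factors, and the main fit used the values as deposited. How other scalings moved the results is given below. All fragment ranges come from the recovered fragments, and the read depth of the peak lists is unknown. Peak rows were matched by Ensembl gene ID, overlapping rows of a library were merged, and an overlap of at least 1 base counted as a shared place. For the coordinates given, such overlaps were joined in a chain. The 9 genes, Nat10, the 5 genes of smallest p in each pathway list and the 3 genes most like Tgfb3 were named by rule, except 1 gene of the target list that is not reported here. The members and lists were chosen with earlier results of these data known. Ep300 and Pecam1 of the lists were not analysed here. The fit was tested on simulated counts in which no library stood apart. That test does not cover a spread as wide as that of Tgfb3 among the knockdown libraries.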

Additional observations from a re-analysis of the deposited data

How the results depend on the processing

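Each of the 9 genes was refitted under 18 alternatives (other pseudocounts, filters and scalings, library quality weights, a replicate block, and libraries averaged or left out), and none passed the threshold in any. Tgfb1, Tgfb2 and Tgfb3 stayed negative and Tgfbr1, Tgfbr3, Smad3 and Smad7 positive in all 18. Leaving out 1 library moved Tgfbr2 between -0.13 and 0.50 and Smad2 between -0.056 and 0.24 on the log2 scale. The number of genes past the limma threshold was 335 with quality weights and 0 to 1 with 1 library left out. With the replicate number as a block it stayed 0, and 500 higher and 676 lower genes had p under 0.05 before adjustment, and Tgfb3 kept its log2 change of -1.79 at a limma adjusted p of 0.554; same-numbered libraries did not deviate together (r of -0.211, -0.284 and 0.179). Averaging control libraries 2 and 3, the most alike pair, left 346 higher and 477 lower. Scaling to equal recovered fragments, chosen after seeing the data, moved the median of all genes to 0.12 and gave 1128 higher and 569 lower genes before adjustment, against 744 and 935 as deposited. It set the median of the transducers and inhibitors at 0.18, which ranged over -0.036 to 0.19 with 1 library left out. A mean FPKM of at least 5 set the median of the other receptors at -0.32. The difference in ac4C peaks per library was 1 without the rows at the shared p-value, 1 at a deposited p of at most 0.001, and -3.83 to 1.17 with 1 library left out. A NAT10 log2 enrichment of at least 2 left 0 of the 9 genes, in all lists as at a shared place, and leaving out 1 RIP library gave 2 to 3 at a shared place. With 3 libraries a group, the interval of Tgfb3 runs from -3.65 to 0.08, so it holds both no difference and a much lower level in the knockdown group.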

Other observations

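Several genes of the wider pathway with a mean under 1 FPKM were left out of the fit. Bmp7 and Mstn, which encode secreted ligands of the TGF-beta family, were listed at 0 in all 6 input libraries. Itgb6, the integrin chain known for activating latent TGF-beta in epithelia, averaged 0.107 FPKM over the 6 libraries, and the growth factor gene Pdgfb averaged 0.143 FPKM. Amhr2, the receptor for anti-Müllerian hormone, stood at 0.329, 0.354 and 0.280 FPKM in the knockdown libraries, against 0, 0.0617 and 0 FPKM in the controls.

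Eln, which encodes elastin and is among the target genes, stood at 266, 396 and 620 FPKM in the knockdown libraries, against 3429, 687 and 692 FPKM in the controls. Control library 1 was far above the other two, and the log2 change was -1.54 (limma adjusted p = 0.408), or -0.77 without that library. Edn1, which encodes the vasoconstrictor endothelin-1, stood at 36.5, 3.17 and 103 FPKM in the knockdown libraries, against 58.8, 129 and 119 FPKM in the controls, with a log2 change of -1.95 (limma adjusted p = 0.496). Its knockdown library 2 was the lowest, as for Tgfb3, and without it the change was -0.65. Eln and Edn1 were singled out after their values were seen.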
